A study of Mus musculus with 2 samples.

Results

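The Notch receptors Notch1, Notch2 and Notch3, the ligands Dll1, Dll4, Jag1 and Jag2, and the target genes Hes1, Hey1 and Heyl were followed in newborn mouse skeletal muscle. These 10 genes were taken by symbol from the 43346 gene IDs of each gene table, and all 10 were present in both tables. The muscle came from B6NCrl mice on postnatal day 0, with no treatment or mutation named in the labels. The series holds 1 group of 2 libraries, labelled as biological replicate 1 (pup 1) and biological replicate 2 (pup 2) of 1 pregnancy. The labels give both libraries the same donor entry, so the spread between them is that between pups only if the wording of the descriptions holds. The muscle that was taken is not named and sex was not collected. Each library was made from 10 ng of total RNA longer than 200 nt, and the gene tables summed to 40455042 (replicate 1) and 37151129 (replicate 2) expected counts.

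Notch receptors are membrane proteins that are cut when a Delta or Jagged ligand on a neighbouring cell binds them. The freed intracellular part enters the nucleus, joins the DNA-binding protein RBPJ and Mastermind proteins, and switches on genes of the Hes and Hey families, which encode repressors. In developing muscle the pathway is known for keeping progenitor cells from differentiating, and in vessels for arterial and mural cell identity. Whole muscle holds all of these cells, and the values below are for the tissue as a whole.

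All 10 genes were expressed in both pups, at modest levels. Levels are in TPM, a unit that corrects counts for transcript length and scales each library to the same sum. Means ran from 4.14 TPM for Dll4 to 19.9 TPM for Hes1, a 4.80-fold range, while the median of the 12495 protein-coding genes with a mean of at least 1 TPM was 11.8. Only Hes1 lay above that median. Hes1 stood at the 63.3rd percentile of those genes, and the other 9 lay between the 23.7th (Dll4) and the 44.1st (Notch2). The labelled tissue was plain in the same libraries, by the 8 markers of the myofibre list, which covers muscle fibres and their formation. These were Acta1, Ckm, Tnnt3, Myh8, Des, Myh3, Myog and Mymk. They ran from 53613 TPM (Acta1, skeletal actin) down to 140 TPM (Mymk, a fusion protein). No conditions could be compared within 1 group, and no test was run. Means are given ± SD with n = 2.

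**Figure D1:**
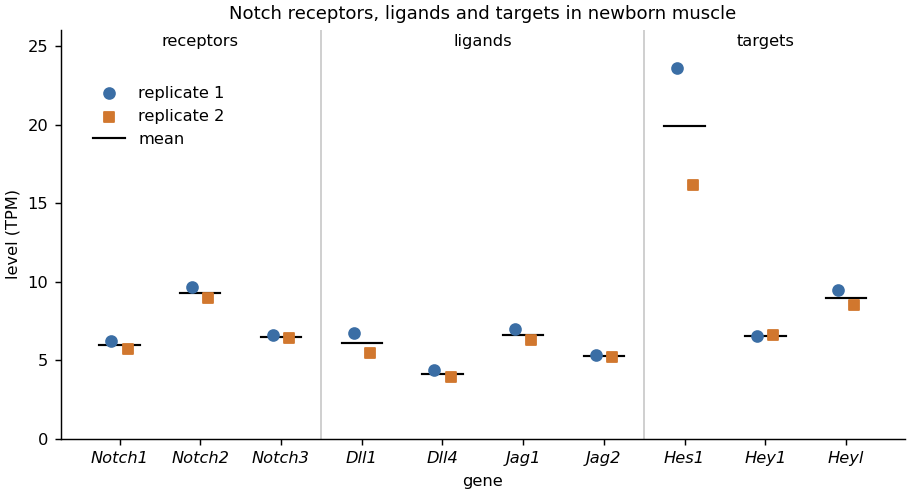
Level of each gene in TPM (linear axis from 0) in replicate 1 (circles) and replicate 2 (squares), with the mean as a bar, grouped as receptors, ligands and targets. Hes1 was highest in both pups (23.59 and 16.18 TPM), and the other 9 genes lay between 3.93 and 9.63 TPM.

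Among the receptors, Notch2 was the most abundant. Notch2 (chr3:98013527-98150361, plus strand, mm10) was at 9.63 TPM in replicate 1 and 8.96 in replicate 2, or 9.29 ± 0.474. Notch3, the receptor known from pericytes and vascular smooth muscle (chr17:32120820-32166852, minus strand), was at 6.58 and 6.41 TPM, or 6.50 ± 0.120. Notch1 (chr2:26457903-26516663, minus strand) was at 6.20 and 5.68 TPM, or 5.94 ± 0.368. Both pups' Notch2 values lay above all values of the other receptors, and both Notch1 values lay below both Notch3 values, by a smaller margin. Of the summed TPM of the 3 receptors, Notch2 held 43.0% and 42.6%, Notch3 29.4% and 30.5%, and Notch1 27.7% and 27.0%. Notch4, a receptor mostly known from endothelium, was at 3.52 and 2.79 TPM, below all 3.

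Ratios between receptors were taken within each pup, as log2 of TPM + 0.1, and a mean larger than 3 SD with the same sign in both pups was taken as larger than the spread. Notch1 to Notch2 came to -0.64 ± 0.02 and Notch3 to Notch2 to -0.51 ± 0.05, both past that limit. Notch1 to Notch3 came to -0.13 ± 0.06 and did not pass it. The place of Notch1 depended on how its transcript models were weighed. From posterior mean TPM, a second estimate in the same tables, Notch1 was at 8.63 and 8.04 and the ratio to Notch3 turned to 0.38 ± 0.04. From the TPM of its leading transcript alone it was -0.34 in both pups. Notch1 therefore stood above or below Notch3 according to the estimate, while Notch2 was above both in all 3. The gap of Notch1 to Notch2 moved as well, to -0.13 ± 0.0028 with posterior mean TPM and to -0.85 ± 0.05 by leading transcript.

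The DNA just before the start of each receptor gene is shown, since it is the regulatory sequence nearest to the transcripts counted. The bases are from RefSeq promoter windows (GRCm38.p6), printed 5′ to 3′ on the gene's strand and ending at the base before the RefSeq start. Capitals mark the N-box, CACNAG on either strand, a motif that Hes proteins are known to bind. The RefSeq start was also the first base of the leading transcript for Notch1 and Notch2, and lay 38 bases upstream of it for Notch3. The stretches are chr2:26503823-26504072 (Notch1, minus strand), chr3:98013288-98013537 (Notch2, plus strand) and chr17:32166891-32167140 (Notch3, minus strand). The last bases of the Notch2 stretch lie in the first exon of another Notch2 transcript model, and the Notch1 stretch lies inside a longer Notch1 model that starts further upstream.
Notch1: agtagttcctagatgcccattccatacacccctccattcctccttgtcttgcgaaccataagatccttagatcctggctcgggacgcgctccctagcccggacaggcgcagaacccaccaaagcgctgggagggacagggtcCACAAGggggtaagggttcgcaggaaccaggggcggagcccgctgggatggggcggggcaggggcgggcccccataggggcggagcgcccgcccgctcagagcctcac
Notch2: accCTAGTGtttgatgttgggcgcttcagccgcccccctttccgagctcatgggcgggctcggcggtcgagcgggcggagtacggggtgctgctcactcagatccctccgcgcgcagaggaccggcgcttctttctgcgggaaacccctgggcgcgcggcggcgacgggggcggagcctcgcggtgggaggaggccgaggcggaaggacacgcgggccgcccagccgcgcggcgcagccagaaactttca
Notch3: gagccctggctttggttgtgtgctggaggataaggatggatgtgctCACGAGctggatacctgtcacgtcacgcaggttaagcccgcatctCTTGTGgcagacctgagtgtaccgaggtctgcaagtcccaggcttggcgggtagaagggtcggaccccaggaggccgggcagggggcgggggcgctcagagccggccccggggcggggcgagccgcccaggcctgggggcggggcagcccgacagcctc
In these stretches the N-box lay 108 bases upstream of the start in Notch1, 247 in Notch2, and 204 and 159 in Notch3. The Notch1 window held 2 more matches, which begin 3 bases (plus orientation) and 1 base (minus orientation) before the start, run across it and are not in capitals.

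Among the ligands, Jag1 and Dll1 had the highest gene TPM and Dll4 the lowest. Jag1 (chr2:137081456-137116644, minus strand), a Jagged ligand, was at 6.98 TPM in replicate 1 and 6.28 in replicate 2, or 6.63 ± 0.495. Dll1 (chr17:15367354-15376872, minus strand), a Delta ligand with a known part in keeping muscle progenitors, was at 6.71 and 5.48 TPM, or 6.09 ± 0.870. The values of Jag1 and Dll1 overlapped between the pups. Jag2 (chr12:112907819-112929776, minus strand) was at 5.30 and 5.19 TPM, or 5.25 ± 0.0778. Dll4 (chr2:119325784-119335962, plus strand), a Delta ligand best known from arteries and sprouting vessels, was at 4.35 and 3.93 TPM, or 4.14 ± 0.297. Both Dll4 values lay below every value of the other 9 genes. Of the summed TPM of the 4 ligands, Jag1 held 29.9% and 30.1%, Dll1 28.7% and 26.2%, Jag2 22.7% and 24.9%, and Dll4 18.6% and 18.8%. Dll3, a divergent Delta protein that is not a classical activating ligand, was listed at 0.01 and 0 TPM.

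The log2 ratio of Dll4 to Jag1 was -0.67 ± 0.01, that of Jag2 to Jag1 -0.33 ± 0.09 and that of Dll1 to Dll4 0.54 ± 0.10, all past 3 SD. Dll1 to Jag1, at -0.12 ± 0.10, was not. The Dll1 ratios moved when the TPM of the leading transcript replaced the gene TPM. Dll1 to Dll4 then fell to 0.11 ± 0.10, within the spread, and Dll1 to Jag1 to -0.54 ± 0.09, past it. On that scale Dll1, at 4.95 and 4.06 TPM, lay below Jag2, at 5.30 and 5.19.

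For Dll4, whose whole count lay in 1 transcript model, the RefSeq start was the first base of that model. The 250 bases before it are chr2:119325534-119325783 (plus strand), and their first bases overlap the first exons of Gm14207, a gene on the other strand. They are shown because they hold an N-box, in capitals, 75 bases upstream of the start.
Dll4: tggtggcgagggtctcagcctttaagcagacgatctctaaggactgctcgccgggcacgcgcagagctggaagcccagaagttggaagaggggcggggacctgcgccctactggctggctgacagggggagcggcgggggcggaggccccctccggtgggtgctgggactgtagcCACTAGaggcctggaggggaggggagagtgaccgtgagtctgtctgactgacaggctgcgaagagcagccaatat
RefSeq windows of 300 bases (250 before the start and 50 after) were at hand for 7 of the 10 genes, with 2 starts for Dll1, giving 8 windows. The leading transcript starts upstream of the RefSeq start by 124 bases for Jag1, 281 for Jag2 and 153 for the nearer Dll1 start. The Jag2 window therefore lies wholly downstream of that transcript start, and the Jag1 and nearer Dll1 windows hold 126 and 97 bases before it. The other Dll1 RefSeq start lies 956 bases upstream of the leading transcript start. The N-box was found in 5 of the 8, those of Notch1, Notch2, Notch3, Dll4 and the start of Dll1 further upstream, and in 42.5% of all 32851 promoter windows. The RBPJ core TGGGAA, on either strand, was in 0 of the 8 and in 25.6% of all windows. Its longer form GTGGGAA, which contains the core, was in 0 of the 8 and in 6.38% of all, and the E-box CACGTG, a motif of Hes and Hey proteins, in 0 and 7.15%. A match or its lack says only which letters these windows hold. GC content of the 8 windows ran from 55.7% (Jag1) to 86.0% (Jag2), against a median of 52.7% over all windows.

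The targets held the highest level and the widest spread. Hes1 (chr16:30064384-30067796, plus strand), a repressor that Notch and other pathways induce, was at 23.59 TPM in replicate 1 and 16.18 in replicate 2, or 19.9 ± 5.24. Heyl (chr4:123233556-123249875, plus strand), a Notch target known from muscle stem cells and vascular mural cells, was at 9.46 and 8.51 TPM, or 8.98 ± 0.672. Hey1 (chr3:8663359-8667256, minus strand), a target known from arterial endothelium and muscle stem cells, was at 6.52 and 6.58 TPM, or 6.55 ± 0.0424. The order Hes1, Heyl, Hey1 was the same in both pups, with no overlap between the 3 genes. The log2 ratio of Hey1 to Hes1 was -1.56 ± 0.39, that of Heyl to Hes1 -1.11 ± 0.28 and that of Heyl to Hey1 0.45 ± 0.12, all past 3 SD. Hes1 held 59.6% of the 3 genes' TPM in replicate 1 and 51.7% in replicate 2.

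Other genes of the Hes and Hey families were far apart in level. Hes6, a family member known to oppose Hes1 and to favour differentiation, was at 39.97 and 34.70 TPM, above Hes1 in both pups. Nrarp, which encodes a feedback inhibitor of Notch, was at 11.61 and 7.55 TPM. Hey2 was at 0.41 and 0.61 TPM, Hes7 at 0.22 and 0.04, Hes5 at 0.03 and 0.06, and neither pup had a count for Hes2 or Hes3, where up to 3 counts per library could go unseen. The log2 ratio of Hey2 to Hey1 was -3.47 ± 0.33. That of Hes5 to Hes1, -7.09 ± 0.59, is set largely by the added 0.1 TPM, since Hes5 had 1 and 2 counts, and it was -4.30 with 1 TPM added.

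Taken by mean TPM, the order of the 10 genes was Hes1, Notch2, Heyl, Jag1, Hey1, Notch3, Dll1, Notch1, Jag2 and Dll4. Neighbours were called separate where both pups of the upper gene lay above both pups of the lower. Hes1 was separate from Notch2, Heyl from Jag1, Notch1 from Jag2, and Jag2 from Dll4, which makes 4 of the 9 neighbouring pairs. Notch2 and Heyl overlapped, and from Jag1 to Notch1 each gene overlapped the next. Over all 45 pairs of the 10 genes, 37 were separate. The summed TPM was 22.41 and 21.05 for the 3 receptors, 23.34 and 20.88 for the 4 ligands, and 39.57 and 31.27 for the 3 targets.

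Counts alone would give another order, since the receptor transcripts are long. Notch2 had the most expected counts of the 10 genes, 2998 and 2636, on a leading transcript of 10506 nt. Hes1 had 911 and 598 on 1468 nt, and Hey1 422 and 407 on 2423 nt. Notch3 had 1562 and 1439, Notch1 1499.8 and 1374.4, Heyl 1192 and 1043, and Jag1 1143 and 974. The lowest depth was that of Jag2 (627 and 581), Dll1 (549 and 426), Dll4 (475 and 405) and Hey1.

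Most reads of each gene were assigned to 1 protein-coding transcript model. The leading model was the same in both pups and held at least 50% of the gene's expected counts in 10 of 10 genes. Notch2, Notch3 and Jag2 had a single model in the tables, and all Dll4 counts lay in Dll4-201. The share of counts in the leading model was 97.0% and 97.6% for Notch1-201 (34 exons), 99.8% and 99.8% for Jag1-201, 97.6% and 98.1% for Hes1-201, 96.3% and 97.2% for Hey1-201, and 99.6% and 99.7% for Heyl-201. Dll1-201 had the lowest share of the 10 leading models, 93.8% and 93.9%.

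Shares of TPM were lower than shares of counts, because short models weigh more per read. Models with a retained intron, which are not translated to the full protein, took 5.59% and 5.51% of the Dll1 counts but 23.0% and 23.2% of its TPM. For Hey1 they took 3.74% and 2.84% of counts and 10.3% and 8.37% of TPM. Notch1-201 held 83.4% and 88.9% of the Notch1 TPM. In the leading transcript alone, Dll1 was at 4.95 and 4.06 TPM and Notch1 at 5.18 and 5.05. The split was widest in Notch4, where Notch4-201 held 95.2% and 93.8% of counts but 43.6% and 40.5% of TPM. Its log2 ratio to Notch1 was -0.90 ± 0.14 by gene TPM and -1.88 ± 0.27 by leading transcript.

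**Figure D2:**
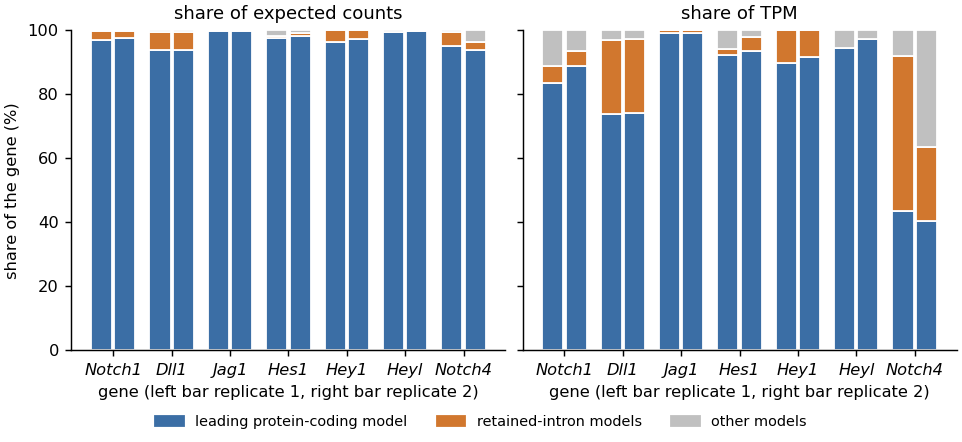
Share of each gene's expected counts (left panel) and TPM (right panel), in percent from 0 to 100, in the leading protein-coding model, in models with a retained intron and in all others. Each gene with more than 1 model holding counts has a bar for replicate 1 (left) and replicate 2 (right), and retained-intron models of Dll1 took 5.59% of counts but 23.0% of TPM in replicate 1.

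Several of the 10 genes share exonic bases with other genes in the GENCODE M21 annotation, and the strand setting of the counting is not given in the sources used here. Without strand, reads from a gene and its antisense partner cannot be told apart. Notch1 shares 1068 exonic bases with the antisense gene 0610009E02Rik (99.6 and 70.0 counts) and 414 with Gm13568 (71.6 and 66.6 counts). Dll1 shares 867 bases with A930024N18Rik (16.9 and 19.4 counts), Notch3 488 with Gm17276 (10.7 and 9.60), and Dll4 214 with Gm14207 (19.0 and 18.0). Each of these partners was assigned fewer counts than the gene it overlaps. If strand was not used, that division of reads is itself uncertain. Notch2 shares 541 bases with Gm42820, on the same strand, which has no row in the tables.

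The pups were next set against each other, after scaling by TMM, a method that takes most genes as equal. With this scaling, the counting intervals of 9 of the 10 genes held equal levels and Hes1 was lower in replicate 2. Its counts of 911 and 598 gave a log2 ratio of replicate 2 over replicate 1 of -0.39, with a 95% counting interval (exact Clopper-Pearson) from -0.55 to -0.24, or 1.31-fold higher in replicate 1. Hes1 alone among the 10, or 1 of 10, had an interval that left out equal levels, against 53.6% of the 12429 genes with at least 100 mean counts. Intervals were taken with TMM only. Another scaling would shift them with the ratios, so these counts hold for TMM, and some bounds lay near 0, as for Notch3 (-0.01 to 0.20). In bulk tissue, fewer cells of a type and less RNA per cell cannot be told apart. Each pup gave 1 library, so the interval covers counting error only and cannot tell PCR copies from separate molecules.

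The receptors had log2 ratios of 0.09 (Notch1), 0.03 (Notch2) and 0.09 (Notch3). The ligands had -0.15 (Dll1, interval -0.34 to 0.03), -0.02 (Dll4), -0.02 (Jag1) and 0.10 (Jag2). Heyl had 0.02 and Hey1 0.16, with an interval from -0.04 to 0.36. A difference of at least 1.5-fold was reached by 0 of the 10 genes, against 6.15% of the 12429 genes either way, 5.01% higher in replicate 1 and 1.13% higher in replicate 2. At that background fewer than 1 of 10 genes would be past the limit, so the 0 is near the background. The median size of the log2 ratio was 0.09 over the 10 genes and 0.15 over all 12429, or 0.13 over the 6853 genes in the same range of counts, of which 52.3% had an interval leaving out equal levels.

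The sign of the small ratios depended on the scaling. With TMM, 4 of the 10 genes were lower in replicate 2 and 6 higher. With total counts 7 were lower and 3 higher, with upper quartile scaling 2 and 8, and by the ratio of TPM 9 and 1. The median of all genes moved with it, from -0.01 (TMM) to -0.10 (total counts), 0.04 (upper quartile) and -0.15 (TPM). Hes1 was lower in replicate 2 under each of these scalings, from -0.34 (upper quartile) to -0.54 (TPM), and Hey1 was higher, from 0.01 (TPM) to 0.21 (upper quartile). Dll1 was also lower under each of these scalings, from -0.10 to -0.29.

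**Figure D3:**
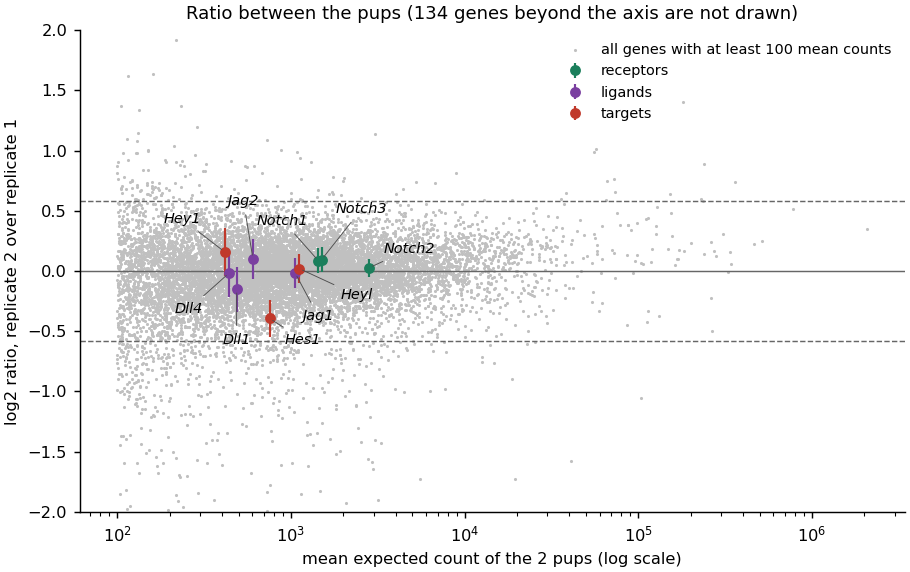
Log2 ratio of replicate 2 over replicate 1 (TMM-scaled) against the mean expected count of the pups (log axis) for the 12429 genes with at least 100 mean counts (grey) and the 10 Notch genes in colour by role, with bars for the 95% counting interval. Dashed lines mark 1.5-fold, 134 genes beyond the axis are not drawn, and Hes1 at -0.39 is the only coloured gene whose interval leaves out 0.

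The 2 libraries differed in tissue markers that are not of muscle. The labelled tissue's own markers were present in both, and most of those of skin, cartilage and fat stood higher in the first pup. In the epidermis list (from 82.2 TPM for Krt1 to 0.0750 for Flg in the mean), 8 of 9 genes with at least 100 mean counts were at least 1.5-fold higher in replicate 1, with a summed level of 456 TPM in replicate 1 and 9.17 in replicate 2, and Flg at 0 in replicate 2. Cartilage genes (12.2 for Col2a1 to 0.985 for Acan) summed to 43.6 and 1.39 TPM (4 of 4 past the limit) and adipocyte genes (1689 for Fabp4 to 24.0 for Plin1) to 4983 and 889 TPM (6 of 6). Leukocyte genes (441 for Cma1 to 2.19 for Ptprc) summed to 1249 and 677 TPM, with 3 of 7 past the limit, the mast cell genes Cpa3, Cma1 and Mcpt4. The part of these tissues in the higher Hes1 of replicate 1 was not tested.

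Markers of the cell types in which the pathway is known to act were mostly within the limit. The endothelial list (10 of 10 at 1 TPM or more, from 9.76 for Vwf to 68.6 for Cldn5) had 0 of 10 past the limit and a median log2 ratio of -0.02. Of the arterial list, which itself holds Dll4 and Hey1, 7 of 10 reached 1 TPM, from 28.1 for Nrp1 to 0.440 for Bmx, and 0 of 9 were past the limit. The pericyte and smooth muscle list, which holds Notch3, had all 11 at 1 TPM or more, from 4.83 for Cnn1 to 278 for Acta2, and 0 past the limit. The muscle stem and progenitor list, which holds Heyl, had 10 of 10, from 1.58 for Calcr to 55.0 for Cdh15. In that list 1 of 10 was past the limit, Calcr, at 1.12 and 2.04 TPM. Pax7, a defining gene of muscle stem cells, was at 1.69 and 1.81 TPM. Its TMM-scaled log2 ratio was 0.38, with an interval from 0.14 to 0.64. Log2 ratios of the stem and progenitor list ran from -0.26 to 1.00, with a median of 0.14. The myofibre list had a median log2 ratio of 0.18, fibroblast markers (2197 for Col3a1 to 12.4 for Pdgfra) -0.22 and Schwann cell markers -0.02, each with 0 past the limit.

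**Figure D4:**
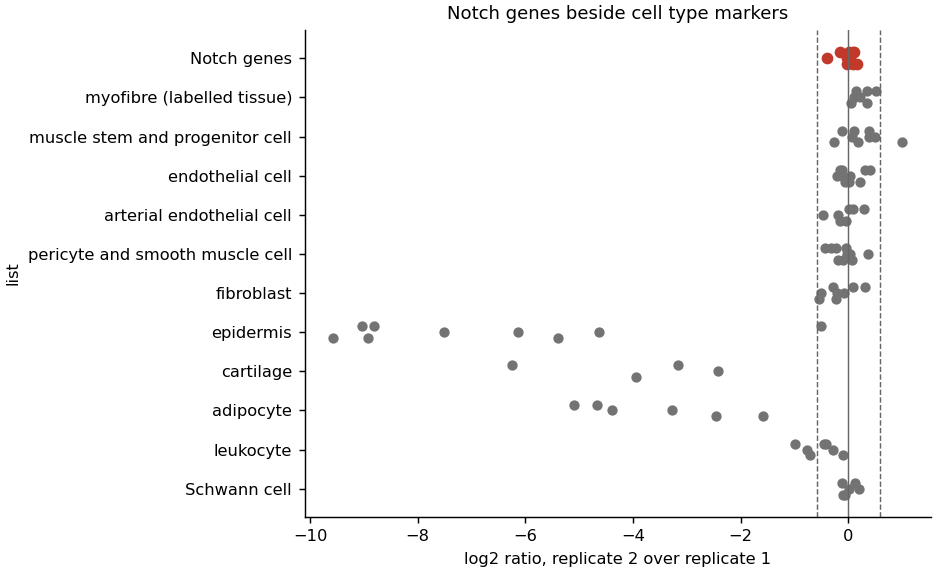
Log2 ratio of replicate 2 over replicate 1 for the 10 Notch genes (red) and for the genes of 11 marker lists with at least 100 mean counts (grey, the Notch genes left out), with dashed lines at 1.5-fold. The Notch genes lay between -0.39 and 0.16, while the epidermis genes reached -9.57 and the adipocyte genes -5.09.

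The rest of the pathway was present as well. Of 89 pathway genes in 10 lists, 77 had a mean of at least 1 TPM, and of the 79 that are not among the 10 genes, 67 did. Between the pups, 67 of those 79 had at least 100 mean counts, and 1 was at least 1.5-fold apart, against 6.15% of all genes. That gene was Mfng (Manic fringe), which encodes a sugar transferase that modifies Notch receptors and changes their response to ligands. Mfng was at 18.68 TPM in replicate 1 and 8.25 in replicate 2, a log2 ratio of -1.05 with an interval from -1.22 to -0.88. The median log2 ratio of the 67 was -0.01, as over all genes. Nrarp stayed within the limit, at -0.49 with an interval from -0.65 to -0.33, further from 0 than Hes1. In its list of direct targets, 5 genes had at least 100 mean counts. Those 5 ran from -0.49 to 0.16, with a median of -0.08.

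The other fringe genes and sugar transferases were lower on average and closer between the pups. Lfng (Lunatic fringe) was at 6.89 ± 0.601 TPM and Rfng (Radical fringe) at 10.00 ± 1.69. Poglut1, which adds glucose to the receptor, was at 10.3 ± 0.672 and Gxylt2, which extends that glucose with xylose, at 7.86 ± 0.156. All 9 genes of the list reached 1 TPM.

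The proteases that cut Notch were all at 1 TPM or more, 10 of 10. Psenen and Ncstn, subunits of gamma-secretase, which makes the last cut, were at 110.5 ± 7.58 and 49.9 ± 5.40 TPM. Adam10, which makes the cut before it, was at 22.78 and 22.77 TPM.

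In the nucleus, 7 of 9 genes listed for the activating complex and related factors reached 1 TPM. Rbpj, the DNA-binding partner of Notch, was at 16.4 ± 0.778 TPM, above each of the 3 receptors. Snw1, a coactivator and splicing factor, was at 52.9 ± 1.39, Crebbp, a histone acetyltransferase, at 11.9 ± 1.16, and Ep300, its relative, at 5.26 ± 0.156. Mastermind genes were low, with Maml2 at 4.45 ± 0.764, Maml1 at 2.02 ± 0.0354 and Maml3 at 0.975 ± 0.163 TPM, and Rbpjl, a paralog of Rbpj, was at 0.0650 ± 0.00707. The corepressor list, 15 of 15 at 1 TPM or more, was led by Ctbp1 at 114 ± 12.2, Hdac2 at 84.9 ± 4.01, Ncor1 at 68.8 ± 3.85 and Hdac1 at 45.5 ± 8.01 TPM. Its 15 genes are used by many repressors other than RBPJ.

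Genes that act on ligands and on receptor turnover were nearly all present. Ligands signal when they are pulled into the sending cell, and 6 of 7 genes of that step reached 1 TPM. Dnm2, a dynamin, was at 41.2 ± 2.57, Epn1, an epsin, at 30.2 ± 6.01, and the ubiquitin ligase Mib2 at 11.5 ± 0.396 TPM. Epn2, another epsin, was at 11.3 ± 1.48, and Neurl1b at 0.480 ± 0.0141. Of the turnover list 12 of 13 did, led by the ubiquitin ligase Nedd4 at 316.56 and 316.05 TPM. Next were Sel1l at 36.6 ± 1.97, Dtx3 at 28.4 ± 5.42 and Fbxw7, which marks the cut receptor for destruction, at 24.0 ± 2.00, while Dtx1 was at 0.525 ± 0.0778.

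Proposed ligands outside the Delta and Jagged families held the highest level of the 10 lists, with 5 of 7 at 1 TPM or more. Dlk1, a Delta-like protein that lacks the domain by which Delta ligands bind Notch, was at 1543.61 and 1350.59 TPM, or 1447 ± 136. The microfibril proteins Mfap2 and Mfap5 were at 265 ± 36.7 and 246 ± 42.3, and Ccn3, a matricellular protein, at 10.3 ± 3.42. Dlk2 was at 2.85 ± 0.382 TPM, while Dner and Cntn1, known from neurons, were at 0.750 ± 0.156 and 0.380 ± 0.0990. The 4 classical ligands together, at 23.34 and 20.88 TPM, lay far below Dlk1.

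**Figure D5:**
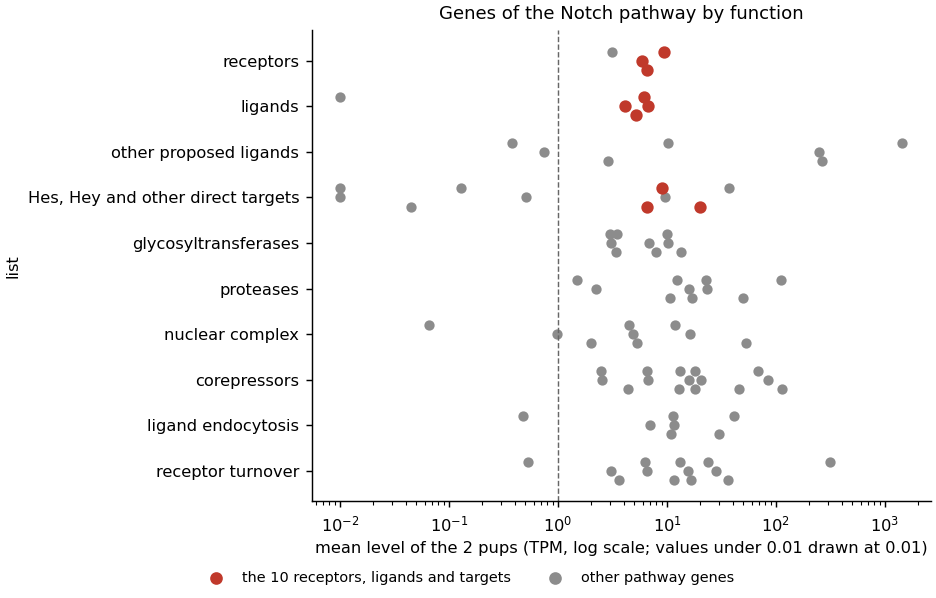
Mean TPM (log axis) of the 89 pathway genes in 10 lists, with the 10 Notch genes in red, the others in grey and a dashed line at 1 TPM. The 10 genes lie between 4.14 and 19.9 TPM, and 12 genes lie left of the line.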

How the data were processed

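Total RNA of skeletal muscle was measured in 2 libraries of 1 group, using a gene and a transcript table of each. The labels' protocols name a mirVana extraction, a SMARTer ultra low input manual and spike-ins. The notes beside the tables name mm10 and GENCODE M4. The aligner, quantifier and strand setting were not given in the sources used here. The authors deposited expected counts, which divide reads that match several features among them. Also deposited were TPM, per the file headers, and posterior means of both.

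Genes were named by ID in GENCODE M21, an annotation of the same build (42462 of 43346 IDs matched). Numbered and spike-in rows (26345) held 0.00109% and 0.00120% of counts and stayed out. Rounded expected counts were scaled by TMM in edgeR 4.0.16 under R 4.3.3, then expressed as log2 CPM (prior count 2). As alternatives, DESeq2 1.42.0 size factors, total counts and upper quartiles were used. Each pup gave 1 library, so no test was run. Chi-square per degree of freedom between the libraries was 63.0 over 17020 genes, more than sampling noise gives. The ratio script was tested on simulated data. Promoter windows are from RefSeq (GRCm38.p6). Python 3.11.15 was used.

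The members, lists, pairs, limits and naming rule were chosen with earlier results of these data known. Named are the 10 genes, all receptors, ligands and Hes or Hey genes, the 4 highest other genes of each pathway list, those under 1 TPM or past 1.5-fold, and the highest and lowest of each marker list. Some genes under this rule are not reported here. Genes named beyond it were chosen after their values were seen. No gene of like pattern is named, since 2 libraries of 1 group give no pattern. Alternatives covered the estimate, detection limit, length correction, pseudocount, scaling, count filter, fold, prior count and each replicate left out.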

Additional observations from a re-analysis of the deposited data

How the results depend on the processing

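All 10 genes stayed at 1 TPM or more with posterior mean TPM, with counts per kb of gene length, in each replicate alone and in the leading transcript, and 9 of 10 (all but Dll4) reached 5 TPM. With the TPM of the leading transcript, an alternative chosen after seeing the data, 7 of the 9 neighbouring pairs were separate in place of 4. With the limit lowered to a difference of 25%, 1 of the 10 genes was past the limit, Hes1, in place of 0, and 19.4% of all genes were. Of the 9 neighbouring pairs, 5 were separate with posterior mean TPM and 5 with counts per kb, and with posterior mean TPM Notch1 moved from rank 8 to 4 and Jag1 from 4 to 7. Of the 13 pair ratios, 11 stayed past 3 SD with either other pseudocount, and 12 were past it with posterior mean TPM and 12 by leading transcript. These sets of 12 differed, without Dll1 to Jag1 in the first and without Dll1 to Dll4 in the second. Of the 89 pathway genes, 81, 76 and 60 reached 0.5, 2 and 5 TPM, 77 reached 1 TPM with posterior mean TPM, and 78 and 77 without replicate 1 and without replicate 2. The other scalings, count filters, prior count and the 2-fold limit left 0 of the 10 genes past the limit, and the leading transcript count stayed at 10. Of 52 pair ratios under another estimate or pseudocount, 20 moved by more than the SD between the pups. That SD can be very small. Dll4 to Jag1, with an SD of 0.01, counted as moved from -0.67 to -0.68 with 0.01 TPM added. Of 50 ratios between the pups, 6 moved beyond their counting interval. None of the 11 pair ratios past 3 SD with the main estimate changed sign. Notch1 to Notch3, not among those 11, was past 3 SD with opposite signs. It was 0.38 with posterior mean TPM and -0.34 by leading transcript. Leaving out a replicate leaves no ratio between pups and no order with overlap, so neither was run. No paired analysis was possible because there is 1 group. Depth limits Hey1 and Dll4 most, whose log2 ratios between the pups had intervals from -0.04 to 0.36 and from -0.21 to 0.18.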
